A study of Homo sapiens with 12 samples.

Results

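A set of 10 genes that drive the entry into mitosis and its early steps was read from an nCounter PanCancer Pathway Panel by their probe names. The rule itself used no measured value, but the set was proposed with earlier results of these data known. They are the cyclins CCNA2 and CCNB1, the phosphatases CDC25A, CDC25B and CDC25C, the kinases WEE1 and PKMYT1, and the mitotic regulators TTK, PTTG2 and STMN1. These were 10 of the 770 panel genes, and all 10 were among the 684 genes tested. The prostate cancer cell lines used, PC-3 from a bone and DU 145 from a brain metastasis, are long-established and do not need androgen to grow. MS13 is a curcumin analogue of the diarylpentanoid class, and the 4 groups were PC-3 cells and DU 145 cells exposed to 16 µM MS13 for 24 h and control cells of each line, which received medium with DMSO alone, with 3 samples per group. Each line is a single model, 1 dose and 1 time were measured, and the lines were grown in different media, so line and medium cannot be told apart where the lines are compared.

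In this assay a colour-coded reporter probe binds each transcript and the codes are counted without amplification. Values are given as scaled counts, which are raw counts divided by a sample's factor from 40 housekeeping genes. The samples held 437471 to 604629 counts over the panel genes, and the background limit, the mean of the negative probes plus 2 SD averaged per group, was 34.1 scaled counts in PC-3 MS13, 28.0 in PC-3 control, 20.5 in DU 145 MS13 and 27.5 in DU 145 control cells. PC-3 control replicates 2 and 3 agreed within the sampling noise (chi-square per degree of freedom 1.04, against 1.17 to 2.21 for the other 11 pairs of replicates) and were counted as 1 sample, which leaves n = 2 for PC-3 control and n = 3 elsewhere. PC-3 MS13 replicate 3 differed most from the other samples of its group (2.21 and 1.70). Of 5 epithelial genes on the panel 4, which were CDH1, ERBB2, EGFR and MET, lay above the limit in every group. None of 6 stromal and endothelial genes and 1 or 2 of 10 leukocyte genes per group, CD40 in each, exceeded the limit.

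A cell enters mitosis when the kinase CDK1, bound to cyclin B1 or cyclin A2, becomes active. WEE1 and PKMYT1 hold CDK1 inactive by adding inhibitory phosphates, and the CDC25 phosphatases remove them, so the balance of these opposing enzymes sets the time of entry. In mitosis TTK monitors the attachment of chromosomes to the spindle, securins hold the sister chromatids together until all are attached, and stathmin, the product of STMN1, regulates the turnover of microtubules. Most of these genes are transcribed mainly in late S, G2 and M phase, so in bulk RNA fewer cells in these phases and less RNA per cell cannot be told apart.

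Of the 10 genes, 8 were downregulated at least 2-fold in MS13-treated cells of both lines. These were CCNA2, CCNB1, CDC25B, CDC25C, PKMYT1, TTK, PTTG2 and STMN1, and in each of them the MS13 samples of a line lay below all control samples of that line. How many of all genes tested were apart in this way was not counted, so this separation cannot be read as particular to these genes. CDC25A and WEE1 did not follow them, as both were higher in MS13-treated DU 145 cells and neither fell 2-fold in PC-3 cells. A gene was taken as changed where its adjusted p (Benjamini-Hochberg over all genes tested) was at most 0.05 in edgeR's quasi-likelihood test. In PC-3 cells 9 of the 10 genes fell, 8 of them at least 2-fold, where 36.8% of all genes tested fell and 13.7% fell at least 2-fold. In DU 145 cells 8 fell, all at least 2-fold, and 2 rose, where 47.1% of all genes tested fell, 20.8% fell at least 2-fold and 19% rose. A fall of at least 2-fold in both lines was found for 7.89% of the genes tested. The median log2 fold change of the 10 genes was -1.31 in PC-3 and -1.25 in DU 145 cells, against -0.09 and -0.34 over all genes tested. Under other scalings all 8 stayed lower in DU 145 MS13 cells, but 3 to 5 of them, instead of 8, passed the 2-fold threshold there, where the share over all genes tested was 8.63% to 15.4%, instead of 20.8%. In PC-3 cells 7 passed it with TMM, where 8.33% of all genes did, and 8 with the other scalings. Of all genes tested 12.4% passed it there with the 10 most stable housekeeping genes and 15.8% with the positive control probes.

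**Figure D1:**
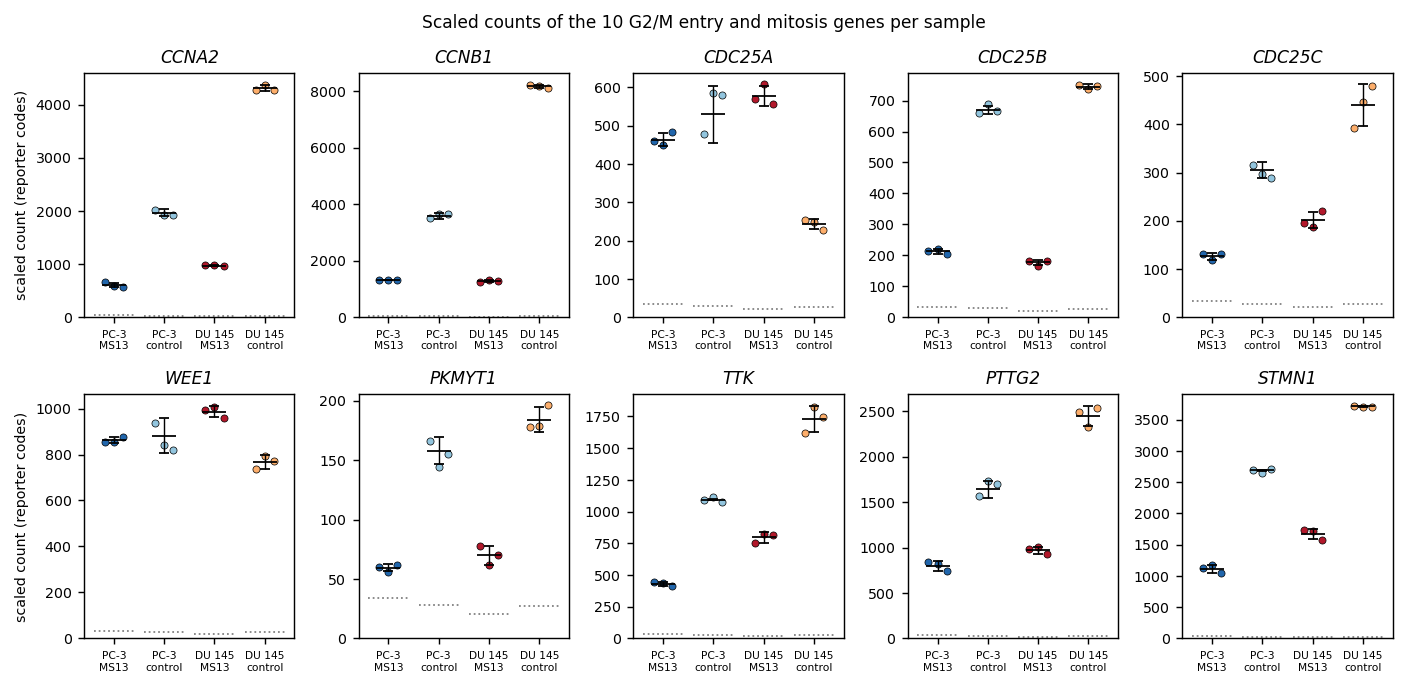
Scaled counts (vertical axis, linear and starting at 0) of each of the 10 genes in the 12 samples, with MS13 left of control within each line. Points are samples, bars the mean ± SD with PC-3 control replicates 2 and 3 as 1 sample, and dotted lines the background limit. The MS13 points lie below the control points of the same line in 8 genes, and CDC25A and WEE1 are higher in MS13-treated DU 145 cells.

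Both cyclin genes fell in both lines. CCNB1, which encodes cyclin B1, the main CDK1 partner in mitosis, had 1321, 1319.5 and 1314 scaled counts in PC-3 MS13 cells, against 3501, 3663 and 3646 in PC-3 control cells. In DU 145 cells it had 1256, 1316 and 1270.3 in MS13 samples, against 8212, 8195 and 8107 in control samples. The groups of each line were far apart, while the MS13 samples of the lines overlapped, at 1318 ± 3.42 in PC-3 and 1281 ± 31.5 in DU 145 cells (SD, n = 3 each). This overlap depended on the scaling, as the log2 difference of PC-3 MS13 minus DU 145 MS13 cells was 0.04 here but -0.15 with the 10 most stable housekeeping genes, -0.39 when scaled to the positive control probes and -0.26 with TMM. The log2 fold change was -1.44 (SE 0.043, adjusted p = 5.32e-45) in PC-3 and -2.67 (SE 0.037, adjusted p = 1.98e-68) in DU 145 cells. In DU 145 cells this was the third largest fall among the 684 genes tested. CCNA2, which encodes cyclin A2, the partner of CDK2 in S phase and of CDK1 in G2, had 656, 586 and 575 in PC-3 MS13 cells, against 2007, 1918 and 1912 in PC-3 control cells. It had 974, 974 and 954 in DU 145 MS13 cells, against 4274, 4373 and 4274 in DU 145 control cells. Its log2 fold change was -1.69 (SE 0.052, adjusted p = 4.3e-44) in PC-3 and -2.15 (SE 0.040, adjusted p = 1.07e-59) in DU 145 cells.

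The promoter windows of both cyclin genes are shown because the genes fell together and both hold the paired elements known from genes of G2 and M phase, a CCAAT box and a cell cycle homology region (CHR). Windows are RefSeq sequence of GRCh38.p14 from 250 bases before to 50 after the annotated start, written 5′ to 3′ on the strand of the gene, with matches to either motif in capitals. CCNA2 lies at chr4:121823834-121824133 on the minus strand and CCNB1 at chr5:69166900-69167199 on the plus strand.
CCNA2: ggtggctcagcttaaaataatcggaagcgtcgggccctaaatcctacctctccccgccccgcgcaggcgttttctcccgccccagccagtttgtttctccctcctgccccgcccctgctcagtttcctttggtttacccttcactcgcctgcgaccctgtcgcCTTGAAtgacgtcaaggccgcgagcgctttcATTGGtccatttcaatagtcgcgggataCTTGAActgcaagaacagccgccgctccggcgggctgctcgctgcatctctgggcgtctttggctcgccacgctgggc
CCNB1: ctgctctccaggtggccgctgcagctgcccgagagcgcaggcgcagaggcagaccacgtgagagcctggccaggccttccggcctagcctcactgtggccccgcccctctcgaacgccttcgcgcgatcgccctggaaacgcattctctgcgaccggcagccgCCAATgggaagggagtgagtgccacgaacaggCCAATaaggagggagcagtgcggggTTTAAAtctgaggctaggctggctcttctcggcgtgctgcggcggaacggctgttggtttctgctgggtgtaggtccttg
In CCNA2 a CHR began 28 bases and a CCAAT box 56 bases before the start, with another CHR match 87 bases before it. In CCNB1 a CHR began 30 bases before the start, and CCAAT boxes began 55 and 87 bases before it.

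The 3 CDC25 phosphatases, which activate CDK1 and CDK2 by removing the inhibitory phosphates, did not move together. CDC25B, which is known as a starter of mitosis, had 214, 220.3 and 204 scaled counts in PC-3 MS13 cells, against 659, 690 and 666 in PC-3 control cells. In DU 145 cells it had 182, 166 and 181 in MS13 samples, against 751, 736 and 746 in control samples, so that the groups of both lines were apart. Its log2 fold change was -1.65 (SE 0.072, adjusted p = 3.48e-34) in PC-3 and -2.07 (SE 0.064, adjusted p = 3.97e-44) in DU 145 cells. CDC25C, which acts on CDK1 at mitosis itself, had 131, 118 and 129.98 in PC-3 MS13 cells, against 317, 297 and 289 in PC-3 control cells. It had 196, 188 and 219.7 in DU 145 MS13 cells, against 393, 446 and 479.8 in DU 145 control cells. The log2 fold change of CDC25C was -1.25 (SE 0.10, adjusted p = 5.12e-19) in PC-3 and -1.13 (SE 0.074, adjusted p = 8.9e-24) in DU 145 cells.

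CDC25A, which acts already at the start of S phase as well as at mitosis, went the other way in DU 145 cells. It had 571, 608 and 556 scaled counts in DU 145 MS13 cells, against 254, 248 and 228 in DU 145 control cells, with all MS13 samples above all control samples (log2 fold change 1.25, SE 0.069, adjusted p = 5.64e-28). In PC-3 cells it had 459.9, 449 and 483 in MS13 samples, against 477, 586 and 581.6 in control samples. These groups overlapped, as 1 MS13 sample lay above the lowest control sample. The log2 fold change of -0.23 in PC-3 cells (SE 0.069, adjusted p = 0.00253) passed the threshold, but not with TMM scaling (-0.05, adjusted p = 0.59) or without the summed control replicates 2 and 3 (-0.04, adjusted p = 0.747).

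Promoter windows of the 3 phosphatase genes are shown to set CDC25A beside the members that fell in both lines. For CDC25B and CDC25C, which have 4 windows each, the one with a CHR and a CCAAT box upstream of the start was taken. Genes with more windows have more chances of a match. As CDC25A has a single window, its contrast with CDC25B and CDC25C was partly set by this choice. CDC25B is at chr20:3796060-3796359 on the plus strand, CDC25C at chr5:138331755-138332054 and CDC25A at chr3:48188368-48188667, both on the minus strand. Capitals mark CHR, CCAAT and E2F matches.
CDC25B: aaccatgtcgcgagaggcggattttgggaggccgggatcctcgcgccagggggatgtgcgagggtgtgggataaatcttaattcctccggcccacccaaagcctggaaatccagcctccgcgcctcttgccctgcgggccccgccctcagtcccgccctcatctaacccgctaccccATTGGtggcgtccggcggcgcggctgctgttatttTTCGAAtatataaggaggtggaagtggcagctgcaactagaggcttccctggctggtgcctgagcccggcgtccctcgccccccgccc
CDC25C: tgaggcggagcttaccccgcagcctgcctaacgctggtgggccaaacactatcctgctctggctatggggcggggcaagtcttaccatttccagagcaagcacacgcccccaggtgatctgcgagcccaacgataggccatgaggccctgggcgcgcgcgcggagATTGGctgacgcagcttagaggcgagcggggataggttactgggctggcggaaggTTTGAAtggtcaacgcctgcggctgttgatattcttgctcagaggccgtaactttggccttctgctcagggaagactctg
CDC25A: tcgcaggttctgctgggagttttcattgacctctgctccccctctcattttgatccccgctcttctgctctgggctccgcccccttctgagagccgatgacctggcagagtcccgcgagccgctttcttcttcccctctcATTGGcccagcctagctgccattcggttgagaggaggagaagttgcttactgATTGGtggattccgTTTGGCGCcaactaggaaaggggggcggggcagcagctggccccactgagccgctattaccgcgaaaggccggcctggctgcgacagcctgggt
The CHR began 38 bases before the start in CDC25B and 30 bases before it in CDC25C, and the CCAAT box 73 and 85 bases before it. CDC25A held no CHR match in this window, CCAAT boxes 58 and 110 bases before the start, and an E2F match 44 bases before it.

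The motifs were searched on both strands. The CHR was searched as TTTGAA, as its variant TTTAAA, as its variant CTTGAA and as its variant TTCGAA, the CCAAT box by its own letters, and the E2F element as TTTGGCGC, TTTCGCGC, TTTCCCGC and TTTGCCGC. The E2F element marks many genes of the G1 to S transition. TTTAAA, like the variant TTCGAA, reads the same on both strands. Of the 10 genes, 7, with 15 windows, matched the RefSeq table, and WEE1, PKMYT1 and TTK are named only. Of the 7, CCNA2, CCNB1, CDC25B and CDC25C held a CHR, all 7 held a CCAAT box, and CDC25A and STMN1 held an E2F match. Among 27305 genes with a window of the same length, 36.7% held a CHR, 39.7% a CCAAT box and 3.99% an E2F match. A CHR and a CCAAT box in 1 window were found in the same 4 members and in 14.9% of all genes. PTTG2 and STMN1 fell without a CHR match in their windows. The PTTG2 count may also hold transcripts of its near-identical relative PTTG1, whose promoter is not shown. The PTTG2 window, including its CCAAT match, may therefore not belong to the RNA that was counted. These matches describe letters and not bound sites.

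**Figure D2:**
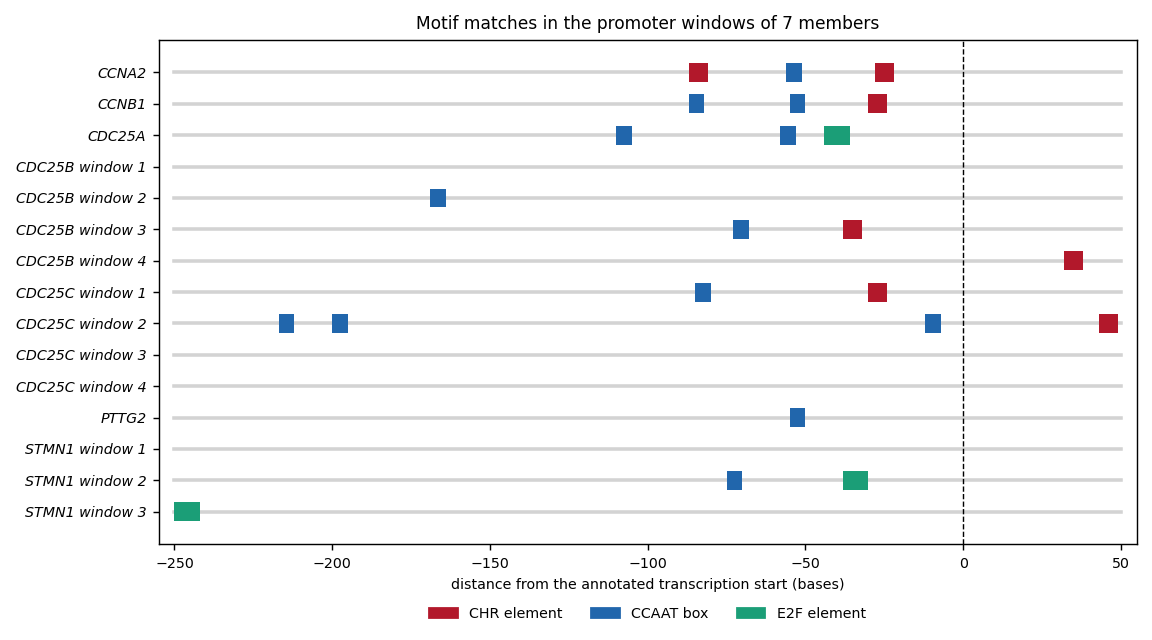
Position of the CHR, CCAAT and E2F matches (coloured bars as long as the match) in the 15 promoter windows of 7 members, with the distance from the annotated transcription start in bases on the horizontal axis. In CCNA2, CCNB1, CDC25B window 3 and CDC25C window 1 a CHR lies 28 to 38 bases before the start with a CCAAT box upstream of it.

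The kinases that oppose the CDC25 phosphatases also separated. WEE1, the nuclear kinase that inhibits CDK1, had 993, 1008 and 959 scaled counts in DU 145 MS13 cells, against 736, 793 and 773 in DU 145 control cells, without overlap (log2 fold change 0.36, SE 0.049, adjusted p = 6.21e-10). In PC-3 cells it had 854, 854 and 877 in MS13 samples, against 936, 840.2 and 819 in control samples. The PC-3 groups overlapped, and the difference did not pass the test (log2 fold change -0.02, 95% interval -0.13 to 0.10, adjusted p = 0.846). PKMYT1, the membrane-bound kinase that inhibits CDK1, fell in both lines. It had 60.2, 56.3 and 61.7 in PC-3 MS13 cells, against 166, 144 and 155 in PC-3 control cells, with no overlap (log2 fold change -1.39, SE 0.13, adjusted p = 1.55e-15). It had 77.9, 61.6 and 70.3 in DU 145 MS13 cells, against 178, 179 and 197 in DU 145 control cells (log2 fold change -1.39, SE 0.11, adjusted p = 6.06e-20). Fewest codes were counted for PKMYT1, which makes its values the least precise of the 10 genes, and its mean in PC-3 MS13 cells was 1.74 times the background limit.

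The regulators of mitosis itself fell by similar amounts. TTK, the spindle checkpoint kinase, had 443, 434 and 409.6 scaled counts in PC-3 MS13 cells, against 1092, 1116 and 1079 in PC-3 control cells. It had 749, 825 and 817 in DU 145 MS13 cells, against 1619, 1825 and 1743 in DU 145 control cells. The log2 fold change was -1.35 (SE 0.062, adjusted p = 4.48e-33) in PC-3 and -1.12 (SE 0.046, adjusted p = 2.64e-36) in DU 145 cells. STMN1, whose product stathmin destabilises microtubules, had 1126, 1166 and 1046 in PC-3 MS13 cells, against 2694, 2650.4 and 2712 in PC-3 control cells. It had 1728, 1711 and 1572 in DU 145 MS13 cells, against 3718, 3706 and 3709 in DU 145 control cells. The log2 fold change of STMN1 was -1.27 (SE 0.047, adjusted p = 5.25e-39) in PC-3 and -1.15 (SE 0.038, adjusted p = 5.23e-42) in DU 145 cells.

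PTTG2 is a near-identical copy of the securin gene PTTG1, which is not among the panel genes analysed here, and its count may hold transcripts of both. It had 835, 820.3 and 739 scaled counts in PC-3 MS13 cells, against 1572, 1728 and 1694 in PC-3 control cells. It had 979.8, 1004 and 925 in DU 145 MS13 cells, against 2486, 2328 and 2535 in DU 145 control cells, and the groups of both lines were apart. The log2 fold change was -1.05 (SE 0.053, adjusted p = 4.07e-30) in PC-3 and -1.34 (SE 0.044, adjusted p = 1.31e-42) in DU 145 cells. Without PC-3 MS13 replicate 3, or without the summed PC-3 control replicates, the fall in PC-3 cells was just under 2-fold (log2 fold change -0.997 and -0.975), and with TMM it was smaller (-0.86).

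The question whether the lines responded alike was tested as the difference of the log2 fold changes, PC-3 minus DU 145, and 7 of the 10 genes differed, where 50% of all genes tested did. The widest gaps were in CDC25A, at -1.48 (SE 0.098, adjusted p = 1.04e-22), which rose in DU 145 and fell slightly in PC-3 cells, and in CCNB1, at 1.23 (SE 0.058, adjusted p = 1.86e-31), which fell less in PC-3 cells. CCNA2, CDC25B and PTTG2 also fell less in PC-3 cells, by differences of 0.47 (SE 0.068), 0.42 (SE 0.10) and 0.29 (SE 0.070). TTK fell more in PC-3 cells, by -0.23 (SE 0.078, adjusted p = 0.0111), and WEE1 differed by -0.38 (SE 0.074). For CDC25C, PKMYT1 and STMN1 the test was not passed, and the 95% intervals of the difference were -0.38 to 0.13, -0.32 to 0.31 and -0.24 to 0.01. The median difference over all genes tested was 0.22. Scaling moved these small differences, and CDC25A, CCNB1, WEE1 and TTK were the genes that kept their call and direction under all 4 scalings.

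**Figure D3:**
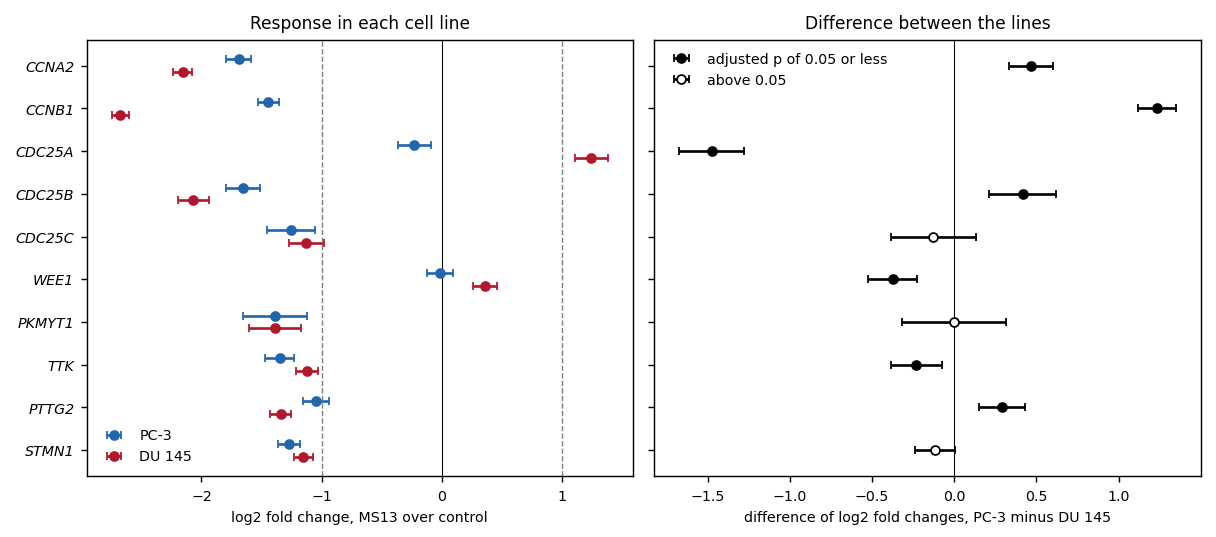
Left, log2 fold change of MS13 over control for each gene in PC-3 and DU 145 cells, with 95% intervals as bars and dashed lines at 2-fold. Right, the difference of both responses, PC-3 minus DU 145, with filled points where the adjusted p is 0.05 or less. CDC25A and CCNB1 lie farthest from 0 on the right, at -1.48 and 1.23.

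Control cells of the lines already differed in these genes. The level in PC-3 control cells was lower than in DU 145 control cells for 8 of the 10 genes and higher for CDC25A and WEE1, where 31% of all genes tested were lower and 36% higher. CCNB1 and CCNA2 were lower by 1.19 and 1.14 on the log2 scale (SE 0.038 and 0.042), and CDC25A was higher, at a log2 difference of 1.16 (SE 0.075, adjusted p = 3.4e-24). TTK, PTTG2, CDC25C and STMN1 had log2 differences of -0.66, -0.57, -0.55 and -0.47. The differences of PKMYT1 (-0.25), CDC25B (-0.15) and WEE1 (0.18) were small, and each lost its call in at least 1 alternative. Since the response and this difference share the control samples, they are not independent of each other.

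Ordered by mean level, PC-3 MS13 cells were lowest, followed by DU 145 MS13, PC-3 control and DU 145 control cells, for CCNA2, CDC25C, PKMYT1, TTK, PTTG2 and STMN1, with overlap between neighbours only for PKMYT1 in the MS13 groups. For CCNB1 and CDC25B DU 145 MS13 cells were lowest, followed by PC-3 MS13 cells, and these overlapped for CCNB1. The order of these MS13 groups turned for CCNB1 with each of the 3 other scalings and for CDC25B with TMM (log2 difference -0.04) and the positive control probes (-0.17), and with TMM the mean of TTK in DU 145 MS13 cells lay above that in PC-3 control cells, by 0.029. CDC25A and WEE1 had another order, with DU 145 control cells lowest and DU 145 MS13 cells highest. For CDC25A the samples of DU 145 MS13, PC-3 control and PC-3 MS13 cells overlapped with their neighbours in this order, and for WEE1 those of the PC-3 groups did. Added up, the 10 genes took 1.02% to 1.05% of the panel counts in PC-3 MS13 samples, against 2.21% to 2.26% in PC-3 control samples, and 1.68% to 1.70% in DU 145 MS13 samples, against 4.25% to 4.31% in DU 145 control samples. This share needs no housekeeping genes, and its groups did not overlap. It is a part of the total, so a rise of other panel genes also lowers it. Genes with high counts weigh most in it, and in control cells of both lines these were CCNB1, CCNA2 and STMN1.

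Ratios between genes within a sample are also free of the scaling, and 7 were compared with an exact two-sided permutation test of the mean change over both lines, labels permuted within each line, with 0.005 the smallest p it can give. The CDC25A to CDC25B ratio of raw counts was 2.04 to 2.37 in PC-3 MS13 samples, against 0.724 to 0.873 in PC-3 control samples, and 3.07 to 3.65 in DU 145 MS13 samples, against 0.306 to 0.338 in DU 145 control samples. The ratio of these RNA counts was thus 2.76-fold higher in PC-3 MS13 and 10.02-fold higher in DU 145 MS13 cells. The mean change over both lines passed the exact permutation test (p = 0.005, adjusted p = 0.007), and neither line was tested alone. The CDC25A to CDC25C ratio was 2.12-fold higher in PC-3 MS13 and 5.19-fold higher in DU 145 MS13 cells. The CDC25B to CDC25C ratio changed by -0.38 in PC-3 and -0.95 in DU 145 cells on the log2 scale. For the mean change over both lines, both ratios had the same p values in this test.

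Between the kinases, the PKMYT1 to WEE1 ratio was 0.0658 to 0.0705 in PC-3 MS13 samples, against 0.172 to 0.190 in PC-3 control samples. It was 0.0611 to 0.0784 in DU 145 MS13 samples, against 0.225 to 0.254 in DU 145 control samples. PKMYT1 thus fell relative to WEE1 in both lines (log2 change -1.38 and -1.77). The mean change over both lines passed the exact permutation test (p = 0.005, adjusted p = 0.007). The CDC25C to WEE1 ratio, which sets an activator of CDK1 beside an inhibitor, changed by -1.24 in PC-3 and -1.49 in DU 145 cells on the log2 scale. Its mean change over both lines had the same p values in this test. This was the only ratio of a phosphatase to a kinase among the 7, and other such pairs were not tested. PKMYT1 had log2 fold changes of -1.39 in PC-3 and -1.39 in DU 145 cells. CDC25C (-1.25 and -1.13) fell less than PKMYT1, CDC25A (-0.23 and 1.25) fell less or rose, and CDC25B (-1.65 and -2.07) fell more. The pairs thus did not all move in 1 direction.

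The CCNB1 to CCNA2 ratio went in opposite directions in the lines. It was 2.01 to 2.29 in PC-3 MS13 samples, against 1.74 to 1.91 in PC-3 control samples, and 1.29 to 1.35 in DU 145 MS13 samples, against 1.87 to 1.92 in DU 145 control samples, with no overlap in either line. The mean change over both lines, -0.13, did not pass the exact permutation test (p = 0.345, adjusted p = 0.402), and the difference between the lines in this ratio was not tested. The TTK to STMN1 ratio changed by -0.08 in PC-3 and 0.04 in DU 145 cells on the log2 scale (exact permutation p = 0.655 for the mean over both lines).

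**Figure D4:**
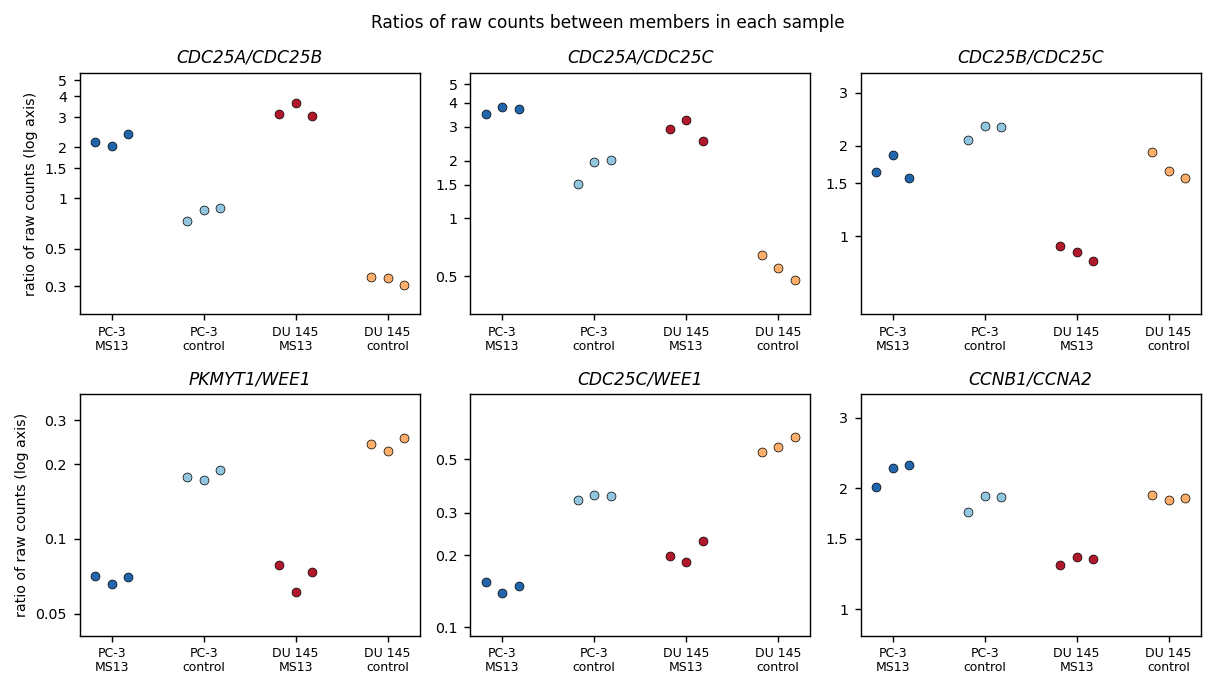
Ratios of raw counts between members in each of the 12 samples (log axis), with MS13 left of control within each line. Each point is 1 sample. CDC25A/CDC25B is 2.04 to 3.65 in all MS13 samples and 0.306 to 0.873 in all control samples, and CCNB1/CCNA2 moves in opposite directions in the lines.

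The size of the falls depended on the scaling, more in DU 145 than in PC-3 cells. The housekeeping genes had 0.137 of the count of the positive control probes in PC-3 MS13, 0.144 in PC-3 control, 0.185 in DU 145 MS13 and 0.152 in DU 145 control cells, as means of the ratio per sample. With TMM, which assumes that most genes do not change, the median log2 fold change of all genes was 0.10 in PC-3 and 0.08 in DU 145 cells. In DU 145 cells CCNB1, CCNA2 and CDC25B then remained past 2-fold, at -2.25, -1.73 and -1.64, and CDC25C, TTK and STMN1 had -0.70, -0.69 and -0.73. CDC25A rose by 1.67 and WEE1 by 0.79 in DU 145 cells with TMM, and WEE1 by 0.17 in PC-3 cells (adjusted p = 0.00444). All 8 genes that fell in both lines were called lower in both under each of the 4 scalings.

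**Figure D5:**
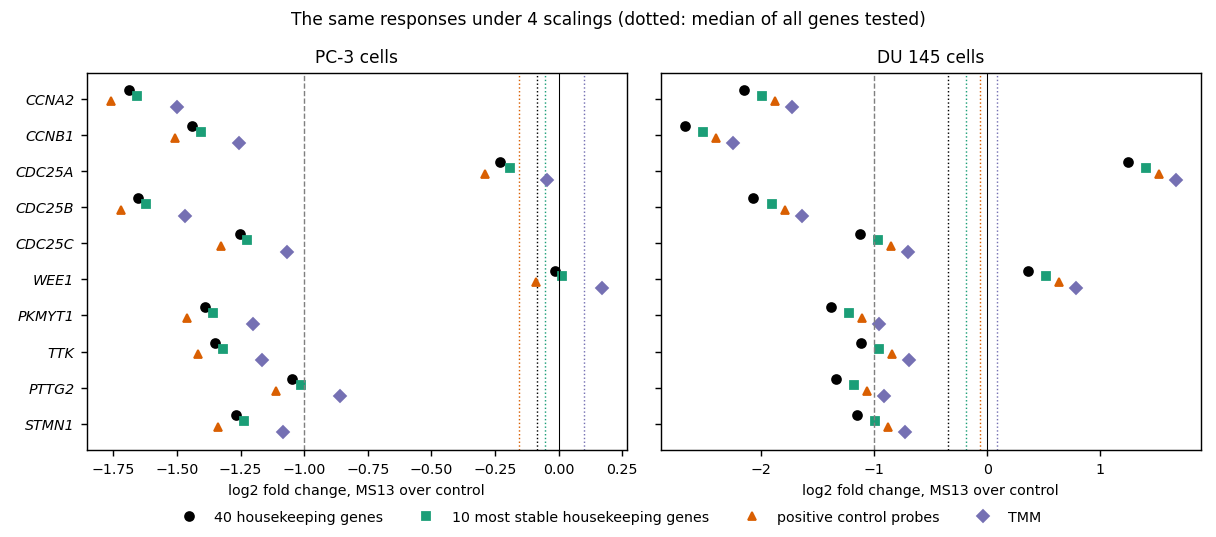
Log2 fold change of MS13 over control in PC-3 (left) and DU 145 cells (right) for each gene under 4 scalings, with the median of all genes tested as a dotted line of the same colour and a dashed line at a 2-fold fall. Within a line all genes shift together, and CCNB1 has -2.67 with the 40 housekeeping genes and -2.25 with TMM in DU 145 cells.

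On a broader list of other genes linked to mitosis, 7 of 11 tested fell and 1 rose in PC-3 cells, and 9 fell and none rose in DU 145 cells. The median log2 fold changes of the list were -0.41 and -0.64, beside -0.09 and -0.34 over all genes tested. The list also held CDC7, CCNA1 and SMC1B, the last of which lay below the background limit in all groups. Of all genes tested 36.8% fell and 21.9% rose in PC-3 cells, and 47.1% fell and 19% rose in DU 145 cells. With TMM 6 of the 11 fell and 2 rose in PC-3 cells, where 31.3% of all genes fell and 31.1% rose, and 7 fell and 1 rose in DU 145 cells, where 29.7% fell and 33% rose. CDC7, a kinase that starts DNA replication, fell to 170 scaled counts in PC-3 MS13 cells, against 537 in PC-3 control cells, and to 309 in DU 145 MS13 cells, against 803 in DU 145 control cells. SMC1A and SMC3, core subunits of the cohesin ring, had log2 fold changes of -1.09 and -0.55 in PC-3 and -1.51 and -0.68 in DU 145 cells. STAG2, another cohesin subunit, MAD2L2, an adaptor related to the spindle checkpoint protein MAD2, and CCNA1, the cyclin A of the germ line, had log2 fold changes of -0.34, -0.47 and -0.47 in PC-3 and -0.48, -0.56 and -1.05 in DU 145 cells, and STAG2 lost its call in DU 145 cells with TMM (log2 fold change -0.05, adjusted p = 0.44).

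The G2 checkpoint genes moved in both directions, with 5 of 13 tested higher and 8 lower in PC-3 MS13 cells and 4 higher and 9 lower in DU 145 MS13 cells, beside shares of all genes of 21.9% higher and 36.8% lower in PC-3 and 19% higher and 47.1% lower in DU 145 cells. With TMM 5 were higher and 6 lower in DU 145 MS13 cells, where 33% of all genes tested were higher and 29.7% lower. CDKN1A, the gene of p21, an inhibitor of CDKs, had 854 scaled counts in PC-3 MS13 cells, against 145 in PC-3 control cells, and 2422 in DU 145 MS13 cells, against 391 in DU 145 control cells. GADD45A, whose product can inhibit CDK1, rose by 3.27 in PC-3 and 3.41 in DU 145 cells on the log2 scale, and its relative GADD45B by 3.69 and 1.40. BRCA1 and PRKDC, which act in double-strand break repair, fell in both lines, with log2 fold changes of -1.06 and -1.53 in PC-3 and -1.02 and -1.21 in DU 145 cells. SFN, which encodes 14-3-3 sigma and can hold cyclin B1 with CDK1 in the cytoplasm, had log2 fold changes of 0.49 in PC-3 and -0.42 in DU 145 cells, the second of which was 0.0022 with TMM (adjusted p = 0.964).

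All 4 tested genes of the E2F and DREAM complexes, which control transcription in the cell cycle, fell in both lines, where 36.8% of all genes tested fell in PC-3 and 47.1% in DU 145 cells. TFDP1, the dimer partner of E2F proteins, had log2 fold changes of -1.61 in PC-3 and -1.89 in DU 145 cells, E2F5 had -1.13 and -2.31, RB1 -1.05 and -1.41, and E2F1, an activator of S phase genes, -1.07 and -0.47. With TMM the fall of E2F1 in DU 145 cells did not pass the test (log2 fold change -0.04, adjusted p = 0.662).

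The pattern over the 4 groups was compared by the root mean square difference of centred log2 group means. Among the members CDC25C and STMN1 were most alike, at 0.037, and TTK was next to CDC25C, at 0.094. CCNA2 and CCNB1 were nearest to each other (0.26), as were CDC25A and WEE1 (0.38), and CDC25A was farthest from each of CCNA2, CCNB1 and CDC25C (1.47, 1.54 and 1.05). Of 421 other genes with a mean of at least 50, those nearest to the average pattern of the 10 genes included NFKB1, SMARCB1, ENDOG and SKP2, at 0.10 to 0.14 on the log2 scale. SKP2, which encodes a ubiquitin ligase subunit, had log2 fold changes of -1.20 in PC-3 and -1.22 in DU 145 cells. With 4 group means, many genes can share a pattern, and no test was made.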

How the data were processed

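The authors deposited raw counts, 1 value per probe for each of 12 samples, with 8 negative and 6 positive control probes listed and no background subtraction or normalization, as the values themselves show. The study's methods state total RNA from 3 independent experiments, normalization in nSolver by housekeeping genes chosen with geNorm, and DEGs (differentially expressed genes) at a fold change of at least 2 and an adjusted p of 0.05 or less. Those steps are not in these values. The labels also name technical repeats, so p-values measure only the spread between these samples, which may be technical.

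The 4 groups were fitted together with edgeR 4.0.16 in R 4.3.3 by its quasi-likelihood method (glmQLFit and glmQLFTest). Library scaling was the geometric mean of 40 housekeeping genes. Of the 730 other genes, the 684 whose mean count reached 10 were tested, with Benjamini-Hochberg adjustment over all of them. The counts of PC-3 control replicates 2 and 3 were added, which left 11 samples. Scaled counts are raw counts divided by the scaling factor of the sample. Ratios were tested in Python 3.11.15 with exact permutation tests, adjusted over the 7 ratios. The method was tested on simulated data. Totals of 437471 to 604629 counts per sample left low genes such as PKMYT1 with a wider counting error.

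The 10 genes, the other gene lists and the tests were chosen with earlier results of these data known. All 10 were named, with up to 6 genes of each other list by the smallest larger-of-both-lines adjusted p, and the 5 genes nearest in pattern, 1 of which is not reported here. Alternatives were DESeq2 1.42.0, TMM, the 10 most stable housekeeping genes, positive control probes A to E, no filter, a minimum mean of 50, subtraction of the negative probes, 12 separate samples, the replicate number as a block, each line fitted alone and each replicate left out. Leaving out the summed PC-3 control replicates together was added after seeing the data. Promoter windows are RefSeq sequence of GRCh38.p14, and probe sequences were not used here.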

Additional observations from a re-analysis of the deposited data

Results flagged for a closer look

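The responses of the lines differed by the edgeR test of the difference itself in 7 of the 10 genes, where 50% of all genes tested did. The log2 differences, PC-3 minus DU 145, were 1.23 for CCNB1 (adjusted p = 1.86e-31), 0.47 for CCNA2 (adjusted p = 1.31e-08), 0.42 for CDC25B (adjusted p = 0.000444) and 0.29 for PTTG2 (adjusted p = 0.000268), all of which fell less in PC-3 cells. TTK fell more in PC-3 cells, at -0.23 (adjusted p = 0.0111). CDC25A differed by -1.48 (adjusted p = 1.04e-22) and WEE1 by -0.38 (adjusted p = 1.28e-05), both of which rose in DU 145 cells. The median difference over all genes tested was 0.22. CCNA2, CDC25B and PTTG2 each lost their call under at least 1 other scaling, so their smaller fall in PC-3 cells depended on the scaling.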

How the results depend on the processing

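The count of genes that fell at least 2-fold in DU 145 cells, 8, was 3 under TMM and 5 under the 10 most stable housekeeping genes or the positive control probes, and stayed 8 when any replicate was left out. Over all genes tested the count there was 142, against 59 under TMM, 105 under the 10 stable genes and 89 under the positive control probes. In PC-3 cells the count of members was 8, against 7 with TMM and 7 without PC-3 MS13 replicate 3. Of all genes tested 94 fell at least 2-fold in PC-3 cells, against 57 with TMM and 91 without that replicate. Scaling also changed calls of small differences between the lines. That of CCNA2 was 0.12 with the positive control probes (adjusted p = 0.229). That of CDC25B was 0.17 under TMM and 0.07 under the positive control probes. That of PTTG2 was 0.05 with TMM, 0.17 with the 10 stable genes and -0.051, the opposite direction, with the positive control probes (adjusted p = 0.553, 0.0563 and 0.649). CDC25C gained a call with TMM (-0.37) and the positive control probes (-0.48), as did STMN1 (-0.36 and -0.46), which passed with the 10 stable genes (-0.24), with background subtracted (-0.17) and without DU 145 MS13 replicate 3 (-0.16) too. Of the 7 genes called, 4 had a higher and 3 a lower value, against 2 and 5 under TMM and 1 and 5 under the positive control probes. Over all genes tested 219 were higher and 123 lower, against 129 and 190 under TMM and 94 and 217 under the positive control probes.

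Values near 0 changed sign. WEE1 in PC-3 cells was 0.17 with TMM, 0.014 with the 10 stable genes, -0.042 to 0.056 with 1 replicate left out and -0.12 without both summed control replicates. The difference between the lines in PKMYT1 was 0.0013 with 12 separate samples, 0.0086 with the replicate block and -0.073 to 0.083 with 1 replicate left out. The TTK to STMN1 ratio changed by -0.052 to 0.013 with 1 replicate left out. Between control cells, CDC25B and PKMYT1 lost their calls with DESeq2 and with background subtracted, WEE1 with the 10 stable genes and the positive control probes, and each without at least 1 control replicate. No pairing by replicate number was visible in these values, as deviations of same-numbered samples correlated at -0.20 to 0.04. These correlations cannot show whether same-numbered samples were processed together. With the replicate block 9 genes changed in PC-3 cells and 10 in DU 145 cells, and 7 differed between the lines, the same counts as without it. No block could be used between control cells, as it lies within a line. The causes of these changes were not tested. Depth limits PKMYT1 most, whose counts were lowest.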
